A study of Mus musculus with 3 samples.

Results

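The 30 glycolysis and lactate genes described here encode the enzymes and transporters that carry glucose to pyruvate and lactate, together with enzymes that feed or gate this route. They were listed by symbol and matched to the gene names of a single-cell RNA sequencing (scRNA-seq) matrix, in which 31053 genes were measured. All 30 had a UMI, and together they held 777918 UMIs, 0.314% of all UMIs in the matrix. A UMI (unique molecular identifier) marks 1 captured RNA molecule. Aldoa had 2 entries, with 102443 and 10 UMIs, which were summed in the levels by cell class, and the comparison by Cst7 used the larger entry for its folds.

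The study compared reactive glia after ischemic and hemorrhagic stroke. Target brain tissue of mice labelled as strain C56BL6, which the study's materials list as C57BL/6, and as 10 weeks old was dissociated with an enzyme kit. The groups were 8 healthy control mice, 8 mice after ischemic stroke, which the study made by occlusion of the middle cerebral artery, and 8 mice after hemorrhagic stroke, which it made by collagenase injection into the striatum. The sources name 8 mice and 1 library for each condition. The matrix tells the 3 libraries apart by a barcode suffix of 1, 2 or 3, and no label or file pairs a suffix with a condition. No value below is therefore a difference between conditions. With 1 library per condition no test was run. The value in each library is given, but the libraries differ in condition as well as in preparation, so their spread is not replicate error.

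Glycolysis releases energy from glucose without oxygen. Cells that rely on it reduce pyruvate to lactate and export it, and cells that take up lactate can turn it back into pyruvate and oxidise it in mitochondria. Most steps are run by isozymes encoded by different genes. In the brain, astrocytes and oligodendrocytes are known to supply lactate to neurons and axons, and activated myeloid cells are known to raise glycolysis.

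The libraries held 69270514 to 105957232 UMIs over 35968 barcodes. Of these, 31982 had at least 1000 UMIs and at most 30% mitochondrial UMIs. Cell classes were then gated on raw UMIs of marker genes, none of them among the 30 genes, and 27026 cells (84.5%) met the gate of 1 class. The 3286 cells that met more than 1 gate were left out, and no other doublet caller was run. The 15 classes with at least 50 cells ranged from 85 pericytes to 10743 microglia, and 6 ependymal cells were not described. Pairs of libraries shared 24 to 43 barcode sequences. Levels are given in CPM, the summed UMIs of a gene in a class per 1000000 UMIs of that class. Markers outside the gates sat in their classes for microglia (Tmem119, at 371 CPM against at most 57.4 CPM elsewhere) and neutrophils (Ly6g, 194 against 0.0780 CPM). Of the markers outside the gates, Atp1b2 (566 CPM in astrocytes, 684 CPM in pericytes) and Cd24a (529 CPM in neuroblasts, 755 CPM in neutrophils) were higher in a class other than their own. The astrocyte gate held Mlc1 at 297 CPM but also 561 CPM of the neuroblast gene Sox11 and 934 CPM of the precursor gene Ptprz1. The neuron gate was a mixture: 21 of its 91 cells had at least 50 UMIs of the vasopressin gene Avp, and 7 of 91 had at least 50 UMIs of the pituitary hormone genes Gh, Prl and Pomc. It is called the neuron gate below for its markers only.

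The libraries were read from the 3′ end, so that a transcript gives 1 UMI whatever its length, and CPM of different genes can be set side by side without a length correction. Each 95% interval is exact (Clopper-Pearson for a share, Poisson for summed counts) and covers counting error only.

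The summed share of the 30 genes differed more than 4-fold among classes. It was highest in choroid plexus cells, at 0.740% of UMIs (0.749% and 0.728% in the libraries of suffix 1 and 2). Pooled over libraries, astrocytes followed with 0.643% (95% interval 0.632 to 0.654%), the neuron gate with 0.608% and neutrophils with 0.515%. This order did not hold in suffix 1, with 0.599% in the neuron gate, 0.484% in neutrophils and 0.403% in astrocytes. The lowest pooled shares were those of neuroblasts, 0.176%, and border macrophages, 0.180%. In suffix 3, which held 151 of 200 border macrophages, the latter had 0.149% and neuroblasts 0.190%. Microglia, with 0.350%, stood between these ends and, pooled, next to endothelial cells, with 0.354%. Of 818 endothelial cells, 801 were in suffix 3, where they had 0.356% and microglia 0.297%. Suffix 3 also held 83 of 85 pericytes and 68 of 89 smooth muscle cells. Levels of endothelial cells and pericytes below thus rest almost wholly on suffix 3. T cells had 0.257% and oligodendrocytes 0.252%, and these neighbours overlapped when the libraries were taken apart: 0.249 to 0.268% in T cells and 0.231 to 0.278% in oligodendrocytes.

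**Figure D1:**
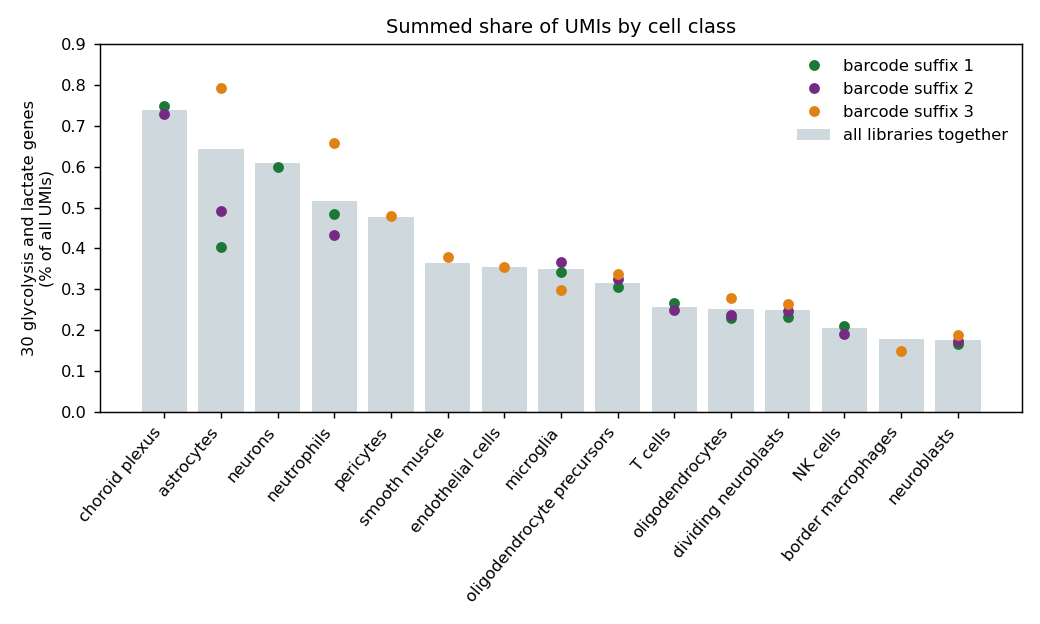
Share of all UMIs held by the 30 glycolysis and lactate genes (percent, y axis) in 15 cell classes (x axis). Bars pool all libraries and points are libraries with at least 30 cells of the class, so that the astrocyte points at 0.403, 0.492 and 0.792% show how far the libraries of 1 class can lie apart.

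The libraries did not give the same order everywhere. The astrocyte share was 0.403%, 0.492% and 0.792% in suffix 1, 2 and 3, while the microglia share was 0.342%, 0.366% and 0.297%. The ratio of astrocytes to microglia was therefore 1.18, 1.34 and 2.67, with a mean of 1.62 on the log2 scale, above 1 in all 3 libraries. The share in oligodendrocytes was 0.674, 0.647 and 0.936 times that in microglia, with a mean of 0.742, below 1 in all 3 libraries. Other RNA moved with the astrocyte values: C1qa, a microglial gene, stood at 191, 239 and 23.4 CPM in the astrocyte gate, and its part in the ratio was not tested. In microglia, suffix 3 also had few cells with Cst7, as described further on.

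Gapdh, which oxidises glyceraldehyde 3-phosphate, was the largest single contributor in all classes but astrocytes, where Aldoc led, and pericytes, where Aldoa led. It made up 22.2% of the 30 genes' UMIs in oligodendrocyte precursors, 32.6% in microglia and 53.7% in dividing neuroblasts. Without Gapdh and Aldoa the summed share was 0.457% in astrocytes, 0.197% in microglia and 0.114% in oligodendrocytes. Of the 30 genes, 7 had their highest pooled CPM in neutrophils, 5 in astrocytes, 5 in choroid plexus cells, 4 in the neuron gate, 3 in endothelial cells, 2 each in microglia, precursors and pericytes, and none in the other 7 classes. The same count over all genes was not made, so these numbers do not set any class apart. Several top places were near ties: the step to the next class was 1.03-fold to 1.07-fold for Hk1, Gpi1, Pfkfb2, Aldoa and Pgam1.

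**Figure D2:**
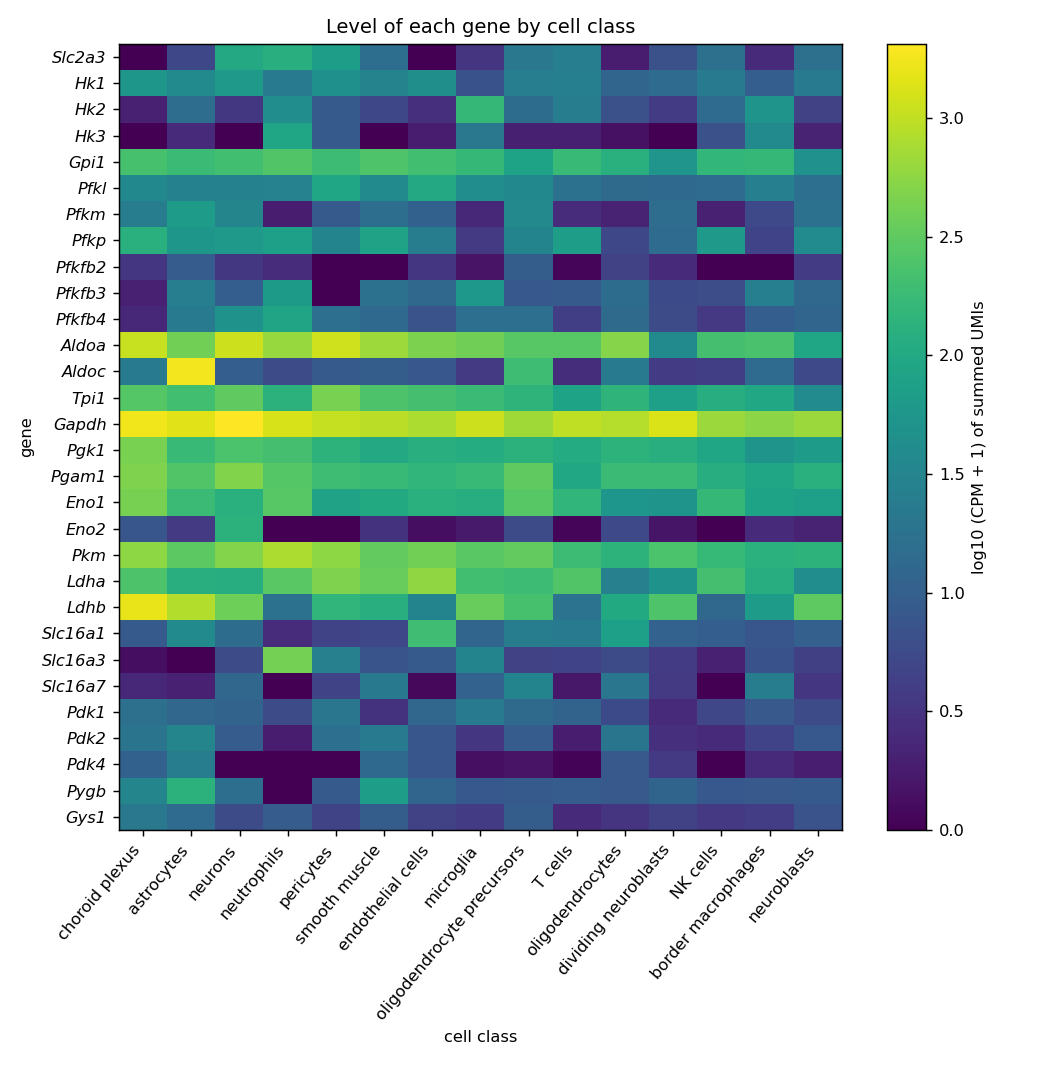
Level of each of the 30 genes (y axis) in 15 cell classes (x axis, in the order of their summed share), as the log10 of CPM + 1 of UMIs summed over the libraries. Single bright cells in otherwise dark rows mark Aldoc in astrocytes (1785 CPM), Eno2 in the neuron gate (133 CPM) and Slc16a3 in neutrophils (419 CPM).

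Glucose enters through facilitative transporters. Slc2a3, the high-affinity neuronal transporter GLUT3, was highest in neutrophils (118 CPM, 95% interval 99.2 to 138) and the neuron gate (99.4 CPM), and the neutrophil libraries had 132, 80.7 and 100 CPM. Neutrophils and the neuron gate thus could not be ordered. It stood at 68.4 CPM in pericytes and 2.15 CPM in microglia, and no UMI was seen in choroid plexus or endothelial cells, where a count of 0 allows up to 1.01 and 0.494 CPM.

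Hexokinase traps glucose in the cell by phosphorylation, and microglia had the largest share of its isozyme Hk2. Hk2, the inducible isozyme, made up 86.0% (95% interval 85.5 to 86.5%) of the UMIs of Hk1, Hk2 and Hk3 in microglia, with 87.3%, 86.6% and 82.5% in the 3 libraries. Its level in microglia was 159 CPM (161, 140 and 244 CPM by library), and the next class, border macrophages, had 50.1 CPM. Pooled, Hk2 made up 51.9% of 131 UMIs in border macrophages. In suffix 3, which held 151 of their 200 cells, Hk2 had 39 UMIs and Hk3 40, so Hk2 did not lead there. Hk2 made up 47.6% in T cells when pooled. The T cells of suffix 1 had 188 UMIs of Hk2 and 147 of Hk1, and those of suffix 2 had 123 and 182. Hk1, the isozyme of most adult brain cells, made up 98.2% in choroid plexus cells, 96.1% in the neuron gate and 94.3% in endothelial cells. Its lowest level, 5.78 CPM, was in microglia. Hk3, a myeloid isozyme, led in neutrophils, with 58.8% of the family and 89.8 CPM. The neutrophil libraries had 56.2%, 55.6% and 71.9%, so Hk3 led in each of them, although the family held only 187 UMIs there. Hk2 lies on chr6:82725025-82774454 of GRCm38, minus strand.

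**Figure D3:**
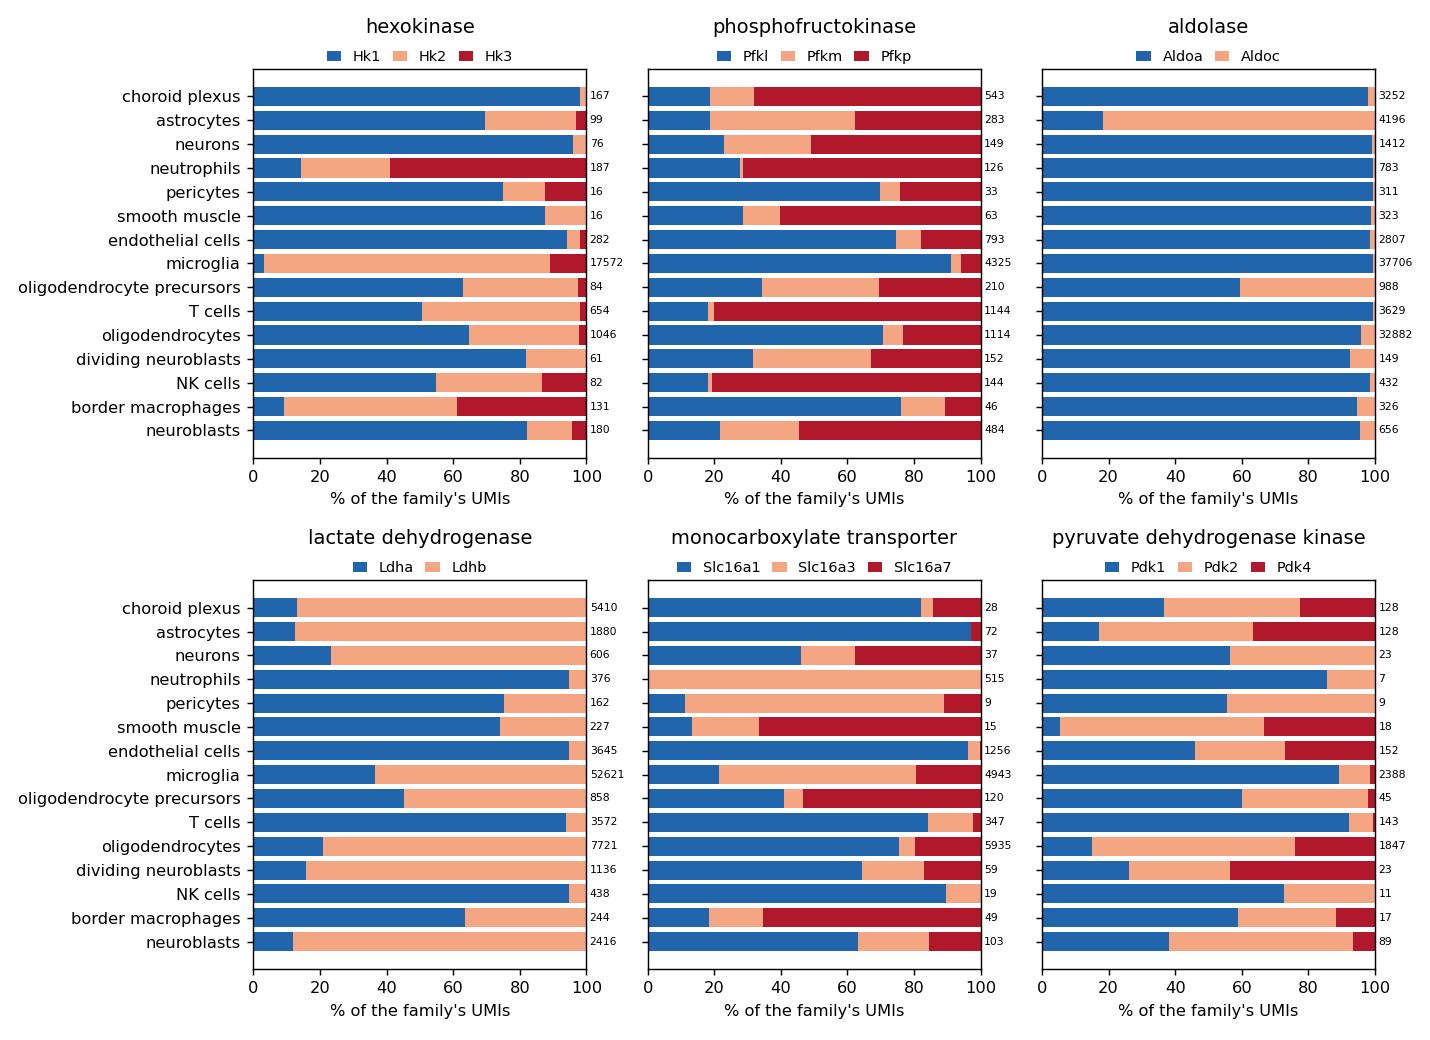
Make-up of 6 isozyme families (panels) in 15 cell classes (y axis), as the percent of the family's UMIs held by each gene (x axis), pooled over libraries. The number right of each bar is the family's UMIs in that class. In microglia Hk2 takes 86.0% of hexokinase, and Aldoc takes 81.7% of aldolase in astrocytes against 40.5% in oligodendrocyte precursors.

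Gpi1, which turns glucose 6-phosphate into fructose 6-phosphate, ranged from 46.8 CPM in neuroblasts to 260 CPM in neutrophils. Its neutrophil libraries lay far apart, at 123, 173 and 715 CPM, so that its top place there rests on suffix 3. The next step is the committed one and has 3 subunit genes. Pfkl, the liver-type subunit of phosphofructokinase, made up 91.1% of the family in microglia (92.1%, 90.4% and 91.5% by library), 74.7% in endothelial cells and 70.6% in oligodendrocytes. Pfkp, the platelet-type subunit, made up 80.0% in T cells and had its highest level in choroid plexus cells, at 124 CPM. Pfkm, the muscle-type subunit, was largest in astrocytes, at 43.5% of the family and 64.0 CPM, and its share was 43.2%, 43.4% and 43.5% in the 3 libraries. Microglia and oligodendrocytes thus shared Pfkl as their main subunit, whereas T cells carried mainly Pfkp and astrocytes a mixture of Pfkm and Pfkp.

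The Pfkfb genes encode the enzymes that make and break fructose 2,6-bisphosphate, the activator of phosphofructokinase. Pfkfb3, which favours its synthesis, stood at 62.9 CPM in neutrophils and 58.1 CPM in microglia. The microglia libraries had 62.6, 56.1 and 55.9 CPM and the neutrophil libraries 81.8, 63.4 and 7.44 CPM, so the 2 classes could not be ordered. Pfkfb4 was highest in neutrophils, at 84.9 CPM, ahead of the neuron gate at 48.5 CPM. Pfkfb2 was low in every class, at most 8.57 CPM in oligodendrocyte precursors.

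Aldolase cuts fructose 1,6-bisphosphate into triose phosphates, and its brain isozyme Aldoc marked astrocytes. Aldoc stood at 1785 CPM in astrocytes, 9.37 times the level of the next class, oligodendrocyte precursors with 191 CPM. A UMI of Aldoc was found in 74.4% of astrocytes (median 3416 UMIs per cell) and in 0.905% of T cells (median 4666 UMIs), which should lack it. Nearly all T cells were in suffix 1 and 2, with 880 and 1530 of 2431 cells. In suffix 3 a UMI was found in 82.7% of astrocytes, 17.6% of oligodendrocytes, 7.13% of microglia and 5.24% of endothelial cells. Its share of the UMIs of Aldoa and Aldoc was 81.7% in astrocytes (95% interval 80.5 to 82.9%), with 207 of 276 UMIs, 76.9% and 83.2% by library. In the precursors the share was 40.5%, with 33.4%, 49.1% and 45.9% by library, and no other class was above 7.4%. The level in astrocytes differed more between libraries than the share did, at 610, 941 and 2566 CPM. Suffix 3 had the most Aldoc in other classes as well, with 11.96 CPM in its microglia against 1.13 and 1.57 CPM in the other libraries. Aldoc lies on chr11:78322968-78327781 of GRCm38. Aldoa, the general isozyme, was highest in pericytes (1174 CPM), the neuron gate (1132 CPM) and choroid plexus cells (1075 CPM), and lowest in dividing neuroblasts (36.4 CPM).

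The enzymes that follow have fewer isozymes among the 30 genes. Tpi1, which interconverts the triose phosphates, ranged from 39.1 CPM in neuroblasts to 437 CPM in pericytes. Gapdh ranged from 543 CPM in border macrophages to 2053 CPM in the neuron gate. Pgk1, which makes ATP from bisphosphoglycerate, reached 444 CPM in choroid plexus cells, and Pgam1, the phosphoglycerate mutase, 484 CPM in the neuron gate and 468 CPM in choroid plexus cells. Reads of these genes can also match processed pseudogenes, so their levels are less certain than those of the isozymes above.

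Enolase again split by class. Eno1, the general enolase, was highest in choroid plexus cells, at 430 CPM, with neutrophils at 278 CPM. A near-identical copy, Eno1b, makes its count uncertain. Eno2, the neuronal enolase, stood at 133 CPM in the neuron gate and at most 6.75 CPM in any other class, a 19.8-fold step. Pkm, pyruvate kinase, was highest in neutrophils, where the libraries were close, at 794, 796 and 789 CPM. Its next highest level was 558 CPM in pericytes, and oligodendrocytes had 137 CPM.

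Lactate dehydrogenase interconverts pyruvate and lactate, and the choice between its subunits divided the classes. Ldhb, the heart-type subunit, made up 88.2% of the pair in neuroblasts, 87.4% in astrocytes, 86.8% in choroid plexus cells, 79.1% in oligodendrocytes and 76.7% in the neuron gate. In endothelial cells, neutrophils, NK cells and T cells the share was 5.08%, 5.32%, 5.25% and 6.24%, so that these 4 classes carried almost only Ldha, the muscle-type subunit. Microglia lay between, with 63.6% Ldhb (95% interval 63.2 to 64.0%) and 62.8%, 61.7% and 73.7% in the libraries. Oligodendrocyte precursors, with 54.9% (49.7%, 61.3% and 58.4% by library), stood apart from the oligodendrocytes at 83.4%, 77.2% and 78.0%. The level of Ldhb in choroid plexus cells, 1584 CPM, was 1.85 times that in astrocytes. That of Ldha was highest in endothelial cells, at 570 CPM, and lowest in oligodendrocytes, at 26.6 CPM.

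Lactate leaves and enters cells with a proton through monocarboxylate transporters. Slc16a3, the low-affinity transporter MCT4, was found at 419 CPM in neutrophils (429, 236 and 506 CPM by library), 13.7 times the 30.6 CPM of microglia, the next class. A UMI was seen in 63.0% of neutrophils (median 2942 UMIs per cell) and in 1.77% of T cells (median 4666 UMIs). It made up 99.6% of the UMIs of the 3 transporter genes in neutrophils. No UMI of Slc16a3 was seen in 359 astrocytes, which allows up to 1.56 CPM. Slc16a1, or MCT1, had its highest level in endothelial cells, at 199 CPM and 96.3% of the family. Oligodendrocytes were next, at 73.9 CPM and 75.5% (75.7, 81.6 and 66.4 CPM by library). Slc16a1 also made up most of the family in other classes. Among them were astrocytes, at 97.2% of 72 UMIs, T cells, at 84.1% of 347 UMIs, and neuroblasts, at 63.1% of 103 UMIs. Microglia had 11.1 CPM of Slc16a1. Slc16a7, the high-affinity MCT2, was low in all classes and highest in oligodendrocyte precursors, at 30.5 CPM and 53.3% of the family. Each of these 3 transporters thus had a different leading class. Slc16a3 lies on chr11:120948480-120960868 of GRCm38.

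Pyruvate dehydrogenase kinases hold pyruvate out of mitochondrial oxidation. Pdk1 made up 89.1% of the UMIs of Pdk1, Pdk2 and Pdk4 in microglia (90.6%, 90.4% and 84.1% by library), with a level of 22.3 CPM, the highest of any class when pooled. Pericytes were next at 19.0 CPM, from only 5 UMIs, so microglia and pericytes could not be ordered. In oligodendrocytes Pdk2 was the main kinase, at 61.1% (60.8%, 62.8% and 60.5%). Pdk2 and Pdk4 both had their highest levels in astrocytes, at 30.7 and 24.5 CPM, but the place of Pdk2 rests on suffix 3, since its other astrocyte libraries lay below smooth muscle at 23.0 CPM. The order of these 2 genes in astrocytes was not stable, since Pdk2 had 17.7, 13.6 and 43.1 CPM and Pdk4 20.6, 29.2 and 23.4 CPM in the libraries.

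Glycogen, a store of glucose that the brain keeps mainly in astrocytes, is built by glycogen synthase and broken down by glycogen phosphorylase. Pygb, the brain phosphorylase, was highest in astrocytes, at 134 CPM (76.6, 113 and 162 CPM by library), with smooth muscle cells next at 69.1 CPM and no UMI in neutrophils, which allows up to 2.45 CPM. All 3 astrocyte libraries lay above the pooled smooth muscle level. Gys1, the synthase, was low, with 19.9 CPM in choroid plexus cells and 13.5 CPM in astrocytes.

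Microglia were then split by Cst7, which encodes the cysteine protease inhibitor cystatin F and is a known gene of activated microglia. Cells with 0 UMIs of Cst7 numbered 1275, 1556 and 1686 in the 3 libraries, and cells with 2 or more numbered 1629, 3574 and 7. With 7 such cells, suffix 3 was left out of the comparison. The cells with Cst7 were deeper, with medians of 12388 and 11137 UMIs against 4998 and 4629, so that depth differs along with Cst7. In both libraries, genes of activated and homeostatic microglia also differed: Spp1 (11014 and 18556 against 1544 and 3036 CPM), Lpl, Axl and Itgax were at least 1.5-fold higher, and P2ry12 (176 and 164 against 730 and 829 CPM), Siglech, Gpr34 and Tmem119 at least 1.5-fold lower.

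The 30 genes took a larger share of UMIs in the cells with Cst7. Their share was 0.250% and 0.256% with 0 UMIs of Cst7, 0.268% and 0.282% with 1 UMI, and 0.383% and 0.393% with 2 or more. The ratio of the last to the former was 1.53 in suffix 1 and 1.54 in suffix 2. Microglia of suffix 3 with no Cst7 had 0.297%, above both other libraries. Within bands of depth, the share was higher with Cst7 in 4 of 4 bands in both libraries, and in cells with 4000 to 10000 UMIs the ratio was 1.30. Depth still differed among the latter, with medians of 7319 and 7446.5 UMIs with Cst7 against 5837 and 5682.5 without. Over cells of all depths, the ratio without Gapdh and Aldoa was 1.27.

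**Figure D4:**
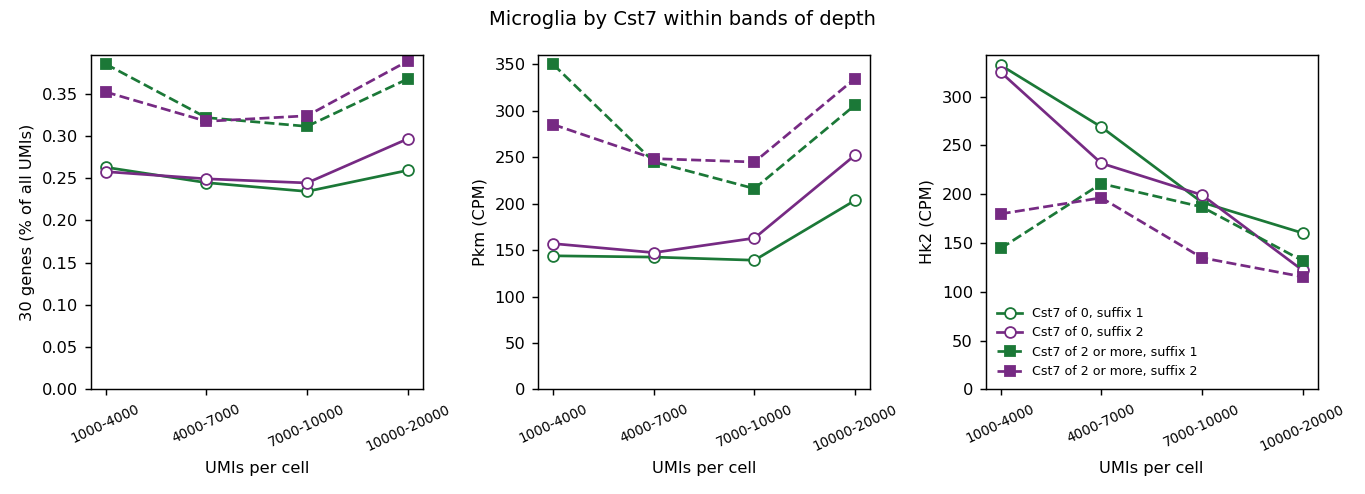
Microglia with 0 UMIs (open circles, solid lines) and with 2 or more UMIs of Cst7 (filled squares, dashed lines) in 4 bands of UMIs per cell (x axis), in the libraries of suffix 1 and 2. The y axes give the summed share of the 30 genes in percent of UMIs and the levels of Pkm and Hk2 in CPM. Share and Pkm are higher with Cst7 in every band, while Hk2 is lower, by amounts that differ between bands and libraries.

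Of the 30 genes, 19 reached a mean of 10 CPM and were compared on CPM + 1, and a gene was counted where the 2 groups differed at least 1.5-fold in the same direction in both libraries. Of the 19, 9 were higher, 3 were lower and 7 were neither. Over all 6341 genes compared by the same rule, 3.77% were higher and 24.7% were lower. The median log2 difference was 0.49 over the 19 and -0.33 over all genes. The filter is on the mean over both groups, and the other 11 genes were too low for this rule.

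The genes that were higher encode 8 enzymes from Gpi1 to Ldha and the lactate exporter Slc16a3. Aldoa was the highest, at 473 and 476 against 214 and 202 CPM, 2.28-fold. Pkm followed at 336 and 345 against 159 and 168 CPM, 2.08-fold, and Gapdh at 1260 and 1389 against 646 and 730 CPM, 1.93-fold. For these 3 genes both libraries with Cst7 lay well above both without it. Pgk1 was 1.95-fold higher, Slc16a3 1.84-fold (37.1 and 32.9 against 20.7 and 16.6 CPM), Pgam1 1.78-fold, Ldha 1.76-fold, Tpi1 1.67-fold and Gpi1 1.60-fold. Just outside the limit, Eno1 was 1.40-fold and Pfkl 1.37-fold higher. Among cells with 4000 to 10000 UMIs only Aldoa, Gapdh and Pkm were past 1.5-fold in both libraries, at 1.76-fold, 1.57-fold and 1.61-fold, and the other 6 were 1.33-fold to 1.58-fold higher on average. Over all 6490 genes compared in that band, 3.11% were higher and 11.7% were lower.

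Hexokinase, a lactate transporter and a kinase of pyruvate dehydrogenase made up the 3 lower genes. Hk2 had 130 and 120 CPM with Cst7 against 233 and 227 CPM without, a log2 difference of -0.88. Slc16a1 had 9.49 and 8.11 against 17.3 and 13.3 CPM, a log2 difference of -0.72, and reached the mean of 10 CPM only through the cells without Cst7. Pdk1 had 18.4 and 17.2 against 29.8 and 29.8 CPM, a log2 difference of -0.71. These are shares of a larger total. Counted per cell, Hk2 had 1.64 and 1.43 UMIs with Cst7 against 1.30 and 1.15 without, and Slc16a1 and Pdk1 were likewise not lower per cell. None of the 3 was past 1.5-fold in both libraries among cells with 4000 to 10000 UMIs. Mean log2 differences there were -0.66 for Slc16a1, -0.40 for Hk2 and -0.33 for Pdk1. None of the 3 was past the limit when differences were taken from the median of all genes. By the same rules 11.7% of all 6490 genes were lower in that band, and 591 of 6341 relative to the median. Hk3, Pfkfb3, Pfkfb4 and Slc16a7 had lower means by 1.19-fold to 1.39-fold, short of the limit. Pfkfb4 and Pfkfb3 were past it in suffix 1 only, at log2 differences of -0.76 and -0.59 against -0.04 and -0.31 in suffix 2. Among cells with 4000 to 10000 UMIs their mean log2 differences were 0.11 and 0.04, so neither was lower there on average.

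**Figure D5:**
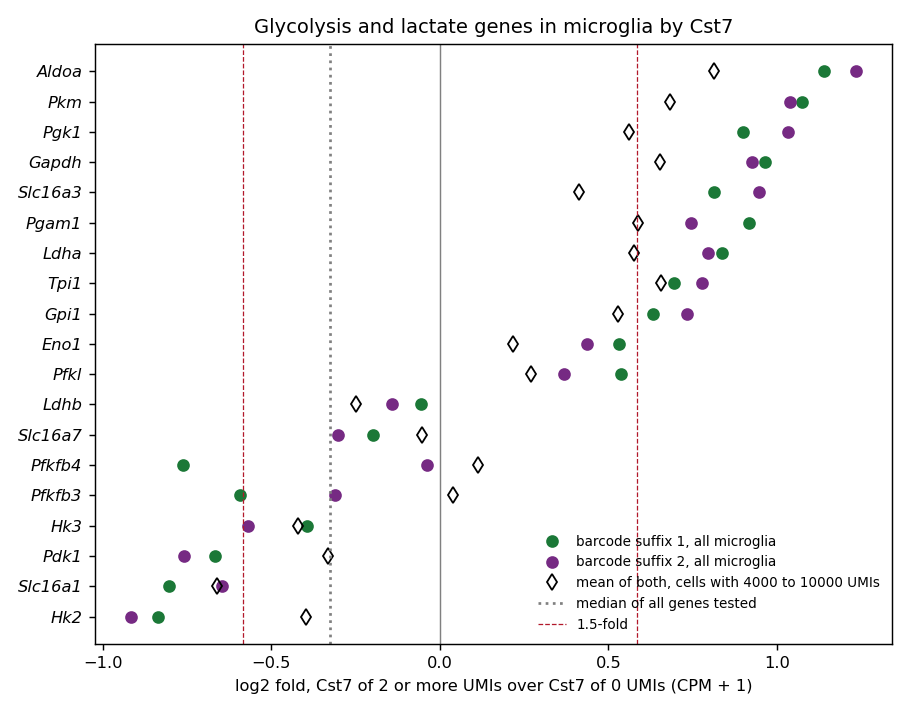
Log2 fold of CPM + 1 in microglia with 2 or more UMIs of Cst7 over those with 0 (x axis) for the 19 genes compared (y axis). Filled points are the libraries of suffix 1 and 2, open diamonds their mean among cells with 4000 to 10000 UMIs, dashed lines 1.5-fold in either direction and the dotted line the median of all genes, -0.33; 9 genes from Gpi1 (0.63 and 0.73) to Aldoa (1.14 and 1.24) lie right of the upper limit in both libraries.

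Isozyme make-up, taken over cells of all depths, differed with Cst7 in several families. Ldhb itself was nearly level, at 332 and 335 CPM with Cst7 against 345 and 370 CPM without, and Ldha was higher. The Ldhb share of the pair was thus 59.2% and 59.4% with Cst7 against 73.0% and 73.7% without, and 73.6% in the microglia of suffix 3 without Cst7. Slc16a3 made up 65.4% and 66.2% of the transporter UMIs with Cst7 against 41.5% and 40.6% without. Pfkl made up 94.5% and 92.3% of phosphofructokinase with Cst7 against 85.02% and 81.7% without, and 91.7% in the microglia of suffix 3 without Cst7. The hexokinase make-up moved less, with Hk2 at 86.4% and 86.0% against 88.5% and 88.0%. Hk1, Pfkm, Pfkp, Aldoc, Eno2, Slc2a3, Pfkfb2, Pdk2, Pdk4, Pygb and Gys1 were the genes under 10 CPM, at most 8.16 CPM in any group.

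Other genes of glucose metabolism had a median difference between that of the genes above and that of all genes. Of 43 such genes outside the 30, 17 were compared, and 2 were higher, 2 lower and 13 neither, beside 3.77% higher and 24.7% lower of all genes. Their median log2 difference was -0.09, against 0.49 over the 19 members compared and -0.33 over all genes. Gyg, the glycogenin that primes glycogen, was 2.27-fold higher and Pygl, the liver-type phosphorylase, 1.99-fold higher, although Pygl was under 10 CPM without Cst7. Slc2a5, the microglial fructose transporter GLUT5, had 13.6 and 13.7 against 83.4 and 90.0 CPM, a log2 difference of -2.58, and Slc16a6 a log2 difference of -1.52. Slc2a1, the general glucose transporter, had 44.3 and 44.6 against 49.4 and 41.0 CPM, and its groups overlapped. Of 10 genes linked to hypoxia, 7 were compared, of which 2 were higher, 1 lower and 4 neither (Vegfa, Bnip3, P4ha1 and Ero1l), with a median log2 difference of 0.05 and beside the 3.77% and 24.7% of all genes. Hif1a, the oxygen-regulated transcription factor subunit, was 2.37-fold higher and Egln3, a prolyl hydroxylase acting on it, 1.92-fold higher, while Ankrd37 had a log2 difference of -1.11. Egln3 and Ankrd37 reached the mean of 10 CPM only through the group where they were higher.

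Other features moved with Cst7. A UMI of a dividing-cell gene was found in 16.8% and 17.2% of the cells with Cst7 against 6.27% and 6.36% of those without. Detection of a UMI rises with depth, and the medians were 12388 and 11137 against 4998 and 4629 UMIs per cell. The part of depth in this difference was not tested. Without cells holding such a UMI the ratio of shares was 1.497. Of 9 stress and early genes, 7 were lower with Cst7, beside 24.7% of all genes compared, among them Jun (2109 and 2903 against 5461 and 6277 CPM) and Fos (2640 and 3726 against 5564 and 6006 CPM). UMIs of the oligodendrocyte gate genes stood at 53.0 and 53.5 CPM with Cst7 against 114 and 108 CPM without. The part of these features in the differences was not tested beyond these values.

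Promoters of 4 of the genes past 1.5-fold in CPM with Cst7 are shown, from both directions. They were chosen because all hold the core letters that hypoxia-inducible factors are known to recognise. Each run is the 250 bases before a gene start in RefSeq (GRCm38.p6), 5′ to 3′ on the gene's strand. Capitals mark ACGTG or GCGTG on either strand, where CACGTG reads as ACGTG on both. Ldha (chr7:46845554-46845803, plus strand), Pgk1 (chrX:106186850-106187099, plus strand) and Slc16a3 (chr11:120948817-120949066, plus strand) were higher with Cst7. Hk2 (chr6:82774455-82774704, minus strand) was lower in CPM but not in UMIs per cell.
Ldha: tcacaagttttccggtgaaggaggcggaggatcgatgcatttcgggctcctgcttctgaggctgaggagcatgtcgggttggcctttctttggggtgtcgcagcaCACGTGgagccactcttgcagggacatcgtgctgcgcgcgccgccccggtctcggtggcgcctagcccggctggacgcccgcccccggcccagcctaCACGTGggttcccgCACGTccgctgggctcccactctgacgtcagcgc
Pgk1: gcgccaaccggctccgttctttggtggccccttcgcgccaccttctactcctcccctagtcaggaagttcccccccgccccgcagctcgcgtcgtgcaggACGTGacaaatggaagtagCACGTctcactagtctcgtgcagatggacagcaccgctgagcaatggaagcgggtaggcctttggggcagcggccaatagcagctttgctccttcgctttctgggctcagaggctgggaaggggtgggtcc
Slc16a3: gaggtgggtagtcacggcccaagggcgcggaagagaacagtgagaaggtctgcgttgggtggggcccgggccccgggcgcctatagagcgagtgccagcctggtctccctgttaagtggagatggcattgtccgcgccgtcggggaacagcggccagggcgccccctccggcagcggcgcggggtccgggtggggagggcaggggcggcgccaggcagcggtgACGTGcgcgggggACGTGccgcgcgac
Hk2: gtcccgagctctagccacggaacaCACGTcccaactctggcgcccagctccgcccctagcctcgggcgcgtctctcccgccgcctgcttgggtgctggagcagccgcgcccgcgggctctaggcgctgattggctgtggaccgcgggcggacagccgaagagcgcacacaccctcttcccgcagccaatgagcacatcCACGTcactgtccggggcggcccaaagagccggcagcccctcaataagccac

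ACGTG was found 5 times in the Ldha promoter shown and 2 times in each of the other 3. A second listed promoter of Ldha (chr7:46846832-46847081) had 0. Of the 30 genes, 28 had a RefSeq promoter entry, and Slc2a3 and Slc16a7 had none. Of their 44 promoters, 77.3% held ACGTG or GCGTG and 40.9% held ACGTG, against 38.6% and 16.6% of all 32841 promoters in the table. Both runs of letters contain CG, and the promoters were not matched for base composition. The part of base composition in this difference was not tested. ACGTG was in a promoter of 14 of the 28 genes with an entry, of 6 of the 9 that were higher with Cst7 and of 2 of the 3 that were lower. Genes differ in how many promoters are listed, and some entries of the same gene overlap in sequence, as for Aldoa, Eno1 and Pfkm. The counts by gene have no share over all genes beside them. A match of letters does not show that a factor binds there.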

How the data were processed

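The authors deposited 1 matrix of UMI counts, whole numbers per gene and cell with no scaling per cell, for 3 scRNA-seq libraries prepared with a 3′ kit. Per the methods and processing notes, Cell Ranger 3.1.0 mapped reads with STAR to mm10, Seurat 3.1.1 followed, and reads were down-sampled to even out depth, which caps the deeper libraries. Here, barcodes with under 1000 UMIs (2862) or over 30% mitochondrial UMIs (1124) were left out. The upper limits on UMIs and genes in the methods were an alternative. Cells were gated on summed raw UMIs of marker genes. Counts were summed by class or Cst7 group and library. A library gave a value from 30 cells on, and a count of 0 allowed 3 counts. No sample had a column of its own and 0 further sample columns were left unused. All 30 genes were named, with other genes of fixed pathway lists if past 1.5-fold. The genes, gates and lists were chosen with earlier results of these data known. Python 3.11.15, NumPy 2.4.6, pandas 2.3.3, SciPy 1.17.1 and Matplotlib 3.10.9 were used. Positions are from the GENCODE annotation of GRCm38.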

Additional observations from a re-analysis of the deposited data

How the results depend on the processing

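No alternative turned the direction of a ratio of summed shares. Among cells with 4000 to 10000 UMIs, the mean log2 differences of Pfkfb3 and Pfkfb4 with Cst7 turned from negative to 0.04 and 0.11. Leaving out a library gave a ratio of astrocytes to microglia of 1.26 to 1.89 (1.26 without suffix 3), of oligodendrocytes to microglia of 0.661 to 0.794, an Ldhb share of 62.0 to 66.0% in microglia and 77.7 to 80.0% in oligodendrocytes, and an Aldoc share of 76.4 to 82.6% in astrocytes. It gave 3 to 5 lower genes with Cst7 (5 without suffix 2, Pfkfb3 and Pfkfb4 added). Without suffix 2, 1850 of all 6301 genes compared were lower. The astrocyte ratio was 1.91 with upper limits on UMIs and genes, 1.70 with doubled gate minimums, 1.85 after thinning to 1000 UMIs, 1.70 without mitochondrial UMIs, 1.90 without Gapdh and Aldoa and 1.83 pooled. The oligodendrocyte ratio was 0.770 at a mitochondrial limit of 10%, 0.783 with upper limits, 0.778 without mitochondrial UMIs, 0.571 without Gapdh and Aldoa and 0.720 pooled. The Ldhb share was 66.4% with upper limits and 66.8% thinned in microglia, and 80.1% at the 10% limit and 76.5% thinned in oligodendrocytes. The Cst7 ratio was 1.43 with upper limits, 1.47 thinned, 1.30 at 4000 to 10000 UMIs and 1.59 for at least 5 Cst7 UMIs. It was 1.497 without cells holding a UMI of a dividing-cell gene, 1.27 without Gapdh and Aldoa and 1.44 pooled. Genes higher with Cst7 numbered 3 at 4000 to 10000 UMIs and 2 at 2-fold, against 9. Genes lower numbered 0 at 4000 to 10000 UMIs, 0 at 2-fold, 0 relative to the median of all genes (chosen after seeing the data, with 11 higher), 1 thinned, 1 at CPM + 10 and 6 from 1 CPM on, against 3. Over all genes compared, 202 of 6490 were higher and 761 lower at 4000 to 10000 UMIs. At 2-fold these were 95 and 416 of 6341, and relative to the median 695 and 591 of 6341. They were 246 and 1494 of 6466 thinned, 180 and 886 of 6341 at CPM + 10, and 396 and 2674 of 11217 from 1 CPM on. The causes were not tested. The Cst7 groups and the ratios of astrocytes and oligodendrocytes to microglia were compared within each library used, except where called pooled. The order of classes, the highest class of each gene and the main isozyme shares rest on UMIs pooled over libraries. Some classes had enough cells for a library value only in different libraries, such as endothelial cells in suffix 3 and choroid plexus cells in suffix 1 and 2. Such classes were not compared within a library. No paired analysis was possible because the labels give no replicate numbers, and conditions could not be compared. Shares rest on 85 cells in the smallest class, and intervals cover counting error only.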
